A study of Mus musculus with 6 samples.

Results

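Collagen genes were examined in bulk RNA-sequencing counts of primary mouse skin cells cultured in normal or high glucose. Every gene whose symbol has the form Col, a number, a and a number was taken, which gave 44 genes among 55487 gene identifiers. By textbook class they were 11 fibrillar, 6 basement membrane, 9 FACIT (fibril-associated collagens with interrupted triple helices) and 18 other collagens. The cells came from the skin of C57BL/6 mice, were labelled endothelial cells (ECs), and were collected with beads against CD31 after collagenase digestion, with 4 to 6 mice aged 2 to 3 months used for an isolation. The 3 normal glucose samples were held at 5 mmol/L and the 3 high glucose samples at 20 mmol/L, both for 48 hours, and the study asked how hyperglycemia changes such cells. The study's captions count the samples of a group as mice, while its methods pool several mice for an isolation, and neither the labels nor the methods say whether the 3 samples of a group came from separate isolations. P-values therefore measure the spread between these samples, which may be technical.

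Collagens are trimers of alpha chains wound into a triple helix, and each chain is the product of its own Col gene. Fibrillar chains such as those of types I, III and V form the banded fibrils that give the dermis its strength, while type IV chains form the sheet-like network of basement membranes on which endothelium rests. FACIT collagens sit on fibril surfaces, type VI chains form beaded filaments around cells, and type VII forms the anchoring fibrils that tie the epidermis to the dermis. Several chains only enter a trimer with a partner chain, as in types I, IV, VI and IX, so the balance between partner mRNAs is of interest as well as their sum.

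High glucose samples held more mRNA of most fibrillar collagens and of several basement membrane, FACIT and beaded filament chains. Of the 44 genes, 40 had enough counts to be tested, of which 22 were higher, 3 were lower and 15 were not called at an adjusted p of 0.05. The share called higher was 55.0% against 16.9% of the 19015 genes tested, and the share called lower was 7.5% against 14.5%, with 31.4% of all tested genes called in either direction. The median log2 fold change (log2FC) of the 40 collagens was 0.35, while that of all tested genes was 0.006. In 23 of the 40 every high glucose sample lay above every normal glucose sample and in 3 below, whereas this held for 25.1% and 21.3% of all tested genes. With library size alone in place of TMM normalization, the median over all genes moved to -0.11 and 72.9% of all calls were lower, compared with 46.2% here. With upper quartile scaling, 56.5% of all calls were lower. Among the called collagens the lower share was 12.0% and 16.0% with library size alone.

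Total counts per sample lay between 120192466 and 146881356, so that 3 counts correspond to 0.0211 to 0.0258 normalised counts per 1000000 (CPM). Replicates of a group differed from each other beyond sampling noise. In the GENCODE annotation, 13 of the 44 collagens share exonic bases with another gene, among them Col3a1, which shares 141 bp with Gm47302 on the same strand, and Gm47302 held 1949 counts in all samples against 17636659 of Col3a1. The labelled cell type was checked against its defining markers, of which several were at or near 0 and others were present. Pecam1, which encodes CD31 itself, had a mean of 0.128 ± 0.038 CPM (SD, n = 3) in normal glucose and 0.103 ± 0.036 CPM (SD, n = 3) in high glucose, Robo4, Cldn5 and Tie1 had at most 4 counts in any sample, and Cdh5 was at 1.80 ± 0.080 and 0.875 ± 0.081 CPM (SD, n = 3 each). Eng was at 155 ± 12.3 and 140 ± 3.48 CPM, Flt1 at 55.3 ± 2.06 and 38.4 ± 0.15 CPM, Egfl7 at 11.1 ± 0.74 and 9.44 ± 0.15 CPM, and Kdr at 4.95 ± 0.46 and 5.50 ± 0.23 CPM (SD, n = 3 each). The 14 endothelial markers summed to 215 to 243 CPM in normal and 194 to 199.7 CPM in high glucose, most of it from Eng and Flt1. Of 10 tested, 2 were higher and 3 lower (20.0% and 30.0%, against 16.9% and 14.5% of all tested genes), and the calls of Erg (higher) and Egfl7 (lower) were lost in 11 and 6 of the alternative settings. The 16 fibroblast markers that are no collagens summed to 17876 to 18700 CPM in normal and 22435 to 23175 CPM in high glucose. All were tested, with 9 higher and 4 lower (56.25% and 25.0%, against 16.9% and 14.5% of all tested genes). Among the higher were Pi16, Fap and Dpt at log2 fold changes of 2.53, 0.93 and 0.77. Among the lower were S100a4, Twist2 and Dpp4 at -1.27, -0.70 and -0.66, the Dpp4 call being lost in 7 alternative settings. Dcn, Lum, Dpt, Fbln1 and Lox are in this list and also in the lists below of genes that act on collagens. Dcn rose from 4492 ± 97.0 to 6748 ± 412 CPM and Lox from 2961 ± 212 to 3875 ± 112 CPM (SD, n = 3 each). This marker sum moved with the collagens but is not separate from those lists, and its part in the collagen results was not tested. In bulk samples, fewer cells of a type and less RNA per cell cannot be told apart.

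Promoter sequences of the collagens are shown here for the members on which the results turn. The RefSeq promoter table (GRCm38.p6, 250 bases before to 50 after a start) held 38 windows of 35 members, and Col1a1, Col2a1, Col4a3, Col5a2, Col9a3, Col12a1, Col14a1, Col22a1 and Col26a1 had no entry. Capitals mark exact matches on either strand to a CCAAT box (CCAAT), a GC box (GGGCGG) or a TATA box (TATAAA), none of which overlap in the windows shown. Col3a1 is shown as the collagen with the most counts, Col1a2 as its abundant fibril partner with a smaller rise, Col28a1 as the largest rise and Col7a1 as the largest fall.
Col3a1 (chr1:45311288-45311587, + strand): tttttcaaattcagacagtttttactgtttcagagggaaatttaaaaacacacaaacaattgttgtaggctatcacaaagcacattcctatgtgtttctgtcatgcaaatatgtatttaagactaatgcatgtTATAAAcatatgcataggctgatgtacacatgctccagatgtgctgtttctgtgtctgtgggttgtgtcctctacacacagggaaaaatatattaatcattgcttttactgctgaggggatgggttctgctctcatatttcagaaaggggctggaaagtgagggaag
Col1a2 (chr6:4505368-4505667, + strand): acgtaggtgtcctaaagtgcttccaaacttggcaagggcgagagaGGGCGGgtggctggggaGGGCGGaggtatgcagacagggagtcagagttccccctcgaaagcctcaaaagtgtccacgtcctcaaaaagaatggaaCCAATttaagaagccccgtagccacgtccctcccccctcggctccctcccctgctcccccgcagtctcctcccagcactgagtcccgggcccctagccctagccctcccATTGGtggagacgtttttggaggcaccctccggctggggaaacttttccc
Col28a1 (chr6:8192568-8192867, - strand): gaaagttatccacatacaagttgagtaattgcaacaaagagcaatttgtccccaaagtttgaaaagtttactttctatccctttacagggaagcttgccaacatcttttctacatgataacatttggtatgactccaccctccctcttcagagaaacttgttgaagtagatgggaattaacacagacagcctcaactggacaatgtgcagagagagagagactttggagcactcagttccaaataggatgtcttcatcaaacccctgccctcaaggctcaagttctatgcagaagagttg
Col7a1 (chr9:108953336-108953635, + strand): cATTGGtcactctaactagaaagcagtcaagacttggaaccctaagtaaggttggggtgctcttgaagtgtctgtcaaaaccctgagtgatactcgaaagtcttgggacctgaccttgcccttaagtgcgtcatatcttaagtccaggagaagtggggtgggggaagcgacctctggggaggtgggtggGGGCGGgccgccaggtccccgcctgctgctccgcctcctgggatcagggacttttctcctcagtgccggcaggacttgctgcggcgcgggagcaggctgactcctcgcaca
Across all collagen windows, a CCAAT box was found in 13 of 38, a GC box in 23 of 38 and a TATA box in 5 of 38, whereas the shares among all 32851 promoter windows of the same length were 37.4%, 35.7% and 13.6%. The Col3a1 window held a TATA box match and no other, Col1a2 held 2 matches each to the CCAAT and GC boxes, Col7a1 held 1 of each, and Col28a1 held none of these letters. G and C made up 37.7% of the Col3a1 window and 41.7% of the Col28a1 window, compared with 61.0% for Col1a2 and 58.7% for Col7a1. Such matches describe the letters of the window and are not evidence of binding.

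Fibrillar collagens showed the broadest rise, with 8 of 10 tested genes higher and none lower. The share called higher was 80.0%, against 16.9% of all tested genes, and the median log2 fold change was 0.53. The genes with the most counts were in this class. Col3a1, the single chain of type III collagen, is at chromosome 1 from 45311538 to 45349706 (GRCm38, + strand) and was the gene with the most counts of all genes in all 6 samples. Its normalised counts were 12781, 11668 and 12808 CPM in normal glucose and 32252, 34283 and 30990 CPM in high glucose. The groups were far apart, and Col3a1 rose 2.62-fold (log2 fold change 1.39, SE 0.06, adjusted p = 1.43e-07).

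Type I collagen, the main fibril protein of skin, is a trimer of Col1a1 and Col1a2 chains. Col1a1 was at 8166, 7101 and 8040 CPM in normal and 13704, 13171 and 12536 CPM in high glucose, without overlap (log2 fold change 0.76, SE 0.07, adjusted p = 1.37e-05). Col1a2 was at 10808, 9807 and 11054 CPM in normal and 15057, 14890 and 14273 CPM in high glucose (log2FC 0.48, SE 0.06, adjusted p = 1.48e-04). Both chains were higher in all high glucose samples, and the rise of Col1a1 was the larger one.

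Type V chains, which enter the core of type I fibrils and limit their diameter, rose together. Col5a1 was at 1992, 1872 and 2035 CPM in normal and 2999, 3031 and 2827 CPM in high glucose (log2FC 0.59, SE 0.06, adjusted p = 2.44e-05). Col5a2, its partner in the common trimer, was at 3070, 2981 and 3238 CPM in normal and 4031, 4189 and 3935 CPM in high glucose (log2FC 0.39, SE 0.05, adjusted p = 3.58e-04). Col5a3, a less common chain, was at 142, 131 and 134 CPM in normal and 228, 209 and 217 CPM in high glucose (log2FC 0.68, SE 0.06, adjusted p = 8.83e-06). None of the 3 overlapped between groups. Col5a2 lies tail to tail with Col3a1 on chromosome 1 with a gap of 24614 bp, and its log2 fold change was the smallest among the called fibrillar genes whereas that of Col3a1 was the largest.

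The remaining fibrillar genes were at lower levels. Col27a1, of the short-helix fibrillar subgroup known from cartilage, was at 44.2, 41.2 and 42.8 CPM in normal and 72.2, 63.1 and 68.5 CPM in high glucose (log2FC 0.67, SE 0.06, adjusted p = 2.12e-05). Col24a1, of the same subgroup, rose from 26.8 ± 0.89 to 36.0 ± 1.29 CPM (SD, n = 3 each; log2FC 0.42, adjusted p = 2.02e-04). Type XI chains are close relatives of type V chains and did not share in the calls. Col11a1 was at 83.2 ± 2.86 CPM in normal and 80.3 ± 2.41 CPM in high glucose (SD, n = 3 each), with overlapping groups (adjusted p = 0.499), and its 95% interval of the log2 fold change ran from -0.17 to 0.07. With library size alone, Col11a1 was called lower at a log2 fold change of -0.17 (adjusted p = 0.0246), and after removal of the GC and length trend at -0.19 (adjusted p = 0.0490), but not with the replicate block added to that fit (-0.18, adjusted p = 0.0805). Col11a2 was at 2.37 ± 0.59 and 3.04 ± 0.32 CPM (adjusted p = 0.125), and it was called higher without normal glucose replicate 1 (log2 fold change 0.56, adjusted p = 0.00491) and with the replicate number as a block (0.37, adjusted p = 0.0490). Col2a1, the cartilage fibril chain, had 8 to 11 counts per sample and was not tested.

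**Figure D1:**
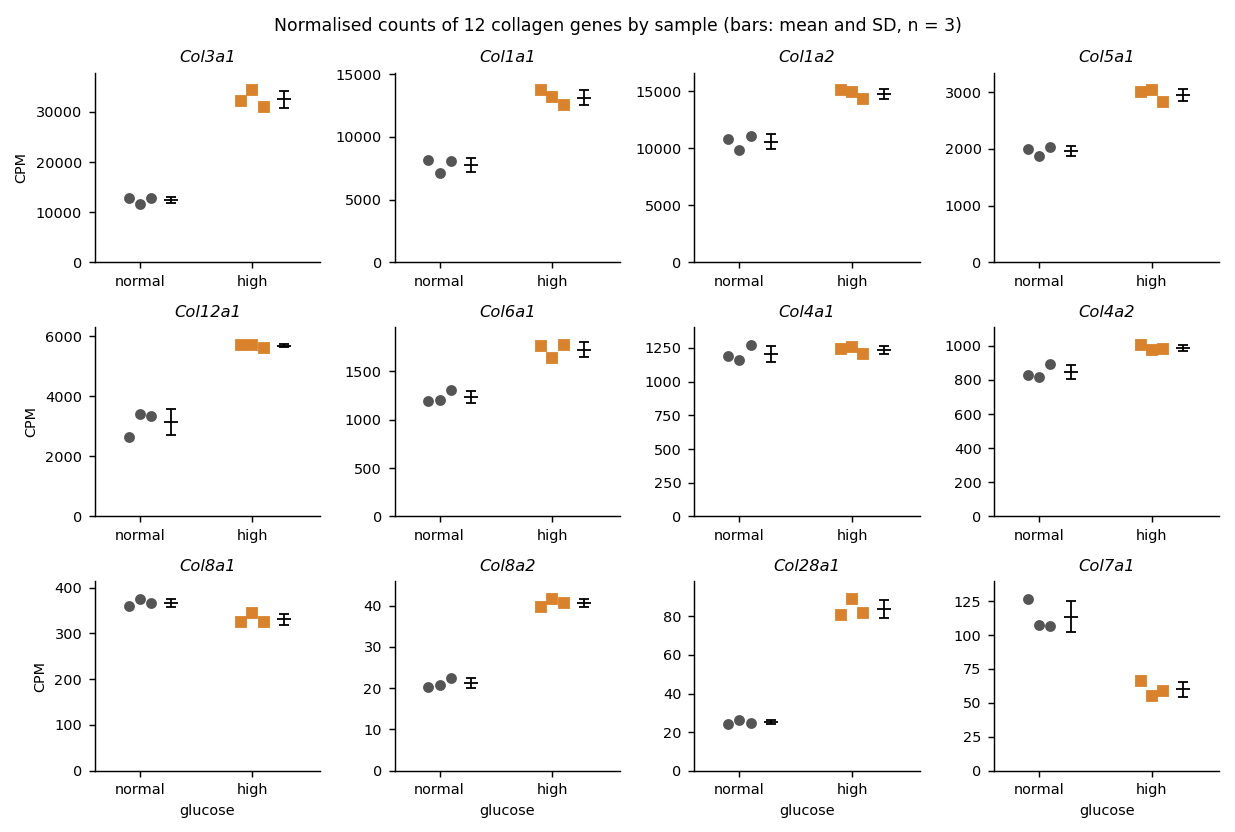
Normalised counts (CPM, y axes from 0) of 12 collagen genes in each of the 3 normal glucose (grey circles) and 3 high glucose samples (orange squares), with the mean and SD beside them. Col3a1 and Col28a1 show the widest gaps upward, Col7a1 and Col8a1 lie lower in high glucose, and the Col4a1 samples of both groups overlap.

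All 6 type IV genes of the basement membrane class were tested, of which 4 were higher and none lower, with a median log2 fold change of 0.44. The share called higher was 66.7%, against 16.9% of all tested genes. Col4a3, Col4a4 and Col4a6 were under 1 CPM in every sample. With a filter of 1 CPM in 3 samples the class median was 0.20. Col4a1 and Col4a2, the chains of the network found in nearly all basement membranes, were the most abundant. Col4a1 was at 1188, 1162 and 1275 CPM in normal and 1242, 1256 and 1202 CPM in high glucose, and its groups overlapped (log2 fold change 0.03, SE 0.05, adjusted p = 0.724). Its 95% interval on the log2 scale was -0.09 to 0.15. Col4a2 was at 831, 817 and 895 CPM in normal and 1007, 976 and 980 CPM in high glucose (log2FC 0.22, SE 0.05, adjusted p = 0.0103). The Col4a2 call was lost with library size alone (0.11, adjusted p = 0.127), after removal of the GC and length trend (0.06, adjusted p = 0.359, and 0.06, adjusted p = 0.433, with the replicate block), and without high glucose replicate 1 (adjusted p = 0.0770) or 3 (adjusted p = 0.0616).

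These genes are arranged in head-to-head pairs. Col4a1 (- strand) and Col4a2 (+ strand) overlap by 22 bp at their starts on chromosome 8 in the GENCODE annotation, and their RefSeq promoter windows share the 78 bases at chr8:11312777-11312854, printed as the + strand because they belong to both genes, with the GC box match in capitals.
Col4a1 and Col4a2: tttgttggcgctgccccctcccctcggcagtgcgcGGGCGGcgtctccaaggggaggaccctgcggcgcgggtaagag
The annotated gene starts are 21 bp apart, and Col4a2 was called higher whereas Col4a1 was not called. The log2 ratio of Col4a1 to Col4a2 was 0.52, 0.51 and 0.51 in normal and 0.30, 0.36 and 0.29 in high glucose. Without strand-aware counting, reads in the 22 shared bases cannot be assigned to one gene, and the strand setting is not given in the sources used here.

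Col4a3 and Col4a4, partners of Col4a5 in the network known from the kidney glomerulus, were expressed at low levels and rose. Col4a3 was at 0.343, 0.268 and 0.437 CPM in normal and 0.818, 0.886 and 0.771 CPM in high glucose (log2FC 1.24, SE 0.20, adjusted p = 9.57e-04). Col4a4 was at 0.335, 0.296 and 0.351 CPM in normal and 0.740, 0.671 and 0.631 CPM in high glucose (log2FC 1.06, SE 0.17, adjusted p = 0.00112). Their genes lie head to head 71 bp apart on chromosome 1, and neither overlapped between groups, with 38 to 116 counts per sample in either gene. Col4a3 shares 563 exonic bp with C430014B12Rik on the other strand, so its counts are uncertain. On chromosome X, Col4a5 and Col4a6 lie head to head 1308 bp apart. Col4a5 rose from 31.7 ± 1.80 to 38.8 ± 2.02 CPM (SD, n = 3 each; log2FC 0.29, adjusted p = 0.00512), with 0.18 for library size alone and for both fits with the GC and length trend removed. Col4a6 was at 0.416 ± 0.086 and 0.628 ± 0.15 CPM (log2 fold change 0.59, adjusted p = 0.0818), and it was called higher without high glucose replicate 1 (log2 fold change 0.77, adjusted p = 0.0349).

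FACIT genes were divided, with 3 higher and 1 lower among 6 tested and a median log2 fold change of 0.44. Col12a1, which lines type I fibrils and links them to other matrix proteins, was by far the most abundant. It was at 2631, 3415 and 3346 CPM in normal and 5727, 5726 and 5624 CPM in high glucose (log2FC 0.86, SE 0.09, adjusted p = 4.52e-05). Normal glucose replicate 1 was low for Col12a1, and the groups did not overlap. Col14a1, a FACIT of similar structure, was at 13.5, 14.2 and 14.6 CPM in normal and 21.5, 20.6 and 21.8 CPM in high glucose (log2FC 0.59, SE 0.06, adjusted p = 3.50e-05). Col16a1 was at 561 ± 49.4 and 571 ± 15.0 CPM (SD, n = 3 each; adjusted p = 0.797), with overlapping groups.

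Type IX collagen, known from cartilage fibrils, is a trimer of 3 different chains, and its genes went in different directions at low counts. Col9a2 was at 1.06, 0.782 and 0.812 CPM in normal and 2.12, 2.43 and 2.17 CPM in high glucose (log2FC 1.34, SE 0.14, adjusted p = 6.01e-05). Col9a3 was at 0.783, 0.641 and 0.781 CPM in normal and 0.522, 0.447 and 0.512 CPM in high glucose (log2FC -0.57, SE 0.17, adjusted p = 0.0251). The Col9a3 call was lost without normal glucose replicate 3 (adjusted p = 0.0720), without high glucose replicate 2 (adjusted p = 0.0699) or 3 (adjusted p = 0.0646) and with DESeq2 (adjusted p = 0.0886), and Col9a3 shares 234 exonic bp with Tcfl5 on the other strand. Col9a1 had 4 to 17 counts per sample and was not tested. Col19a1 with 0 to 7 counts and Col22a1 with 0 to 14 counts were not tested either, and Col20a1, at 0.541 ± 0.13 and 0.659 ± 0.18 CPM, was not called (adjusted p = 0.415) and shares 79 exonic bp with BX649560.1 on the same strand.

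Among the 18 other collagens, 7 were higher and 2 lower (38.9% and 11.1%), with a median log2 fold change of 0.11. Over all tested genes these shares were 16.9% and 14.5%. Beaded filament chains accounted for 4 of the 7. Col6a1 was at 1190, 1204 and 1308 CPM in normal and 1763, 1636 and 1777 CPM in high glucose (log2FC 0.48, SE 0.06, adjusted p = 1.44e-04). Col6a2 was at 925, 933 and 1028 CPM in normal and 1199, 1148 and 1199 CPM in high glucose (log2FC 0.30, SE 0.06, adjusted p = 0.00285), with 0.18 for library size alone. Col6a3, the longest chain of the common type VI trimer, was at 768, 851 and 886 CPM in normal and 1244, 1163 and 1158 CPM in high glucose (log2FC 0.51, SE 0.06, adjusted p = 1.78e-04), with 0.30 after removal of the GC and length trend. None of the 3 overlapped between groups.

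Col6a4, Col6a5 and Col6a6 lie in a row on chromosome 9 and encode chains that can take the place of Col6a3. Col6a5 was at 0.543, 0.423 and 0.437 CPM in normal and 1.37, 1.14 and 1.68 CPM in high glucose (log2FC 1.58, SE 0.18, adjusted p = 1.01e-04). Its neighbours were not called, with Col6a6 at 2.33 ± 0.35 and 2.09 ± 0.32 CPM (adjusted p = 0.467) and Col6a4 at 0.231 ± 0.048 and 0.211 ± 0.044 CPM (adjusted p = 0.733). Only Col6a5 of the 3 was separated between groups, at 56 to 227 counts per sample.

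The largest rise of any collagen was that of Col28a1, which encodes a chain with von Willebrand factor A domains like those of type VI. It was at 24.1, 26.0 and 24.9 CPM in normal and 80.8, 89.2 and 81.8 CPM in high glucose, a 3.35-fold rise (log2 fold change 1.75, SE 0.06, adjusted p = 4.12e-08). The largest fall was that of Col7a1, the anchoring fibril chain, which was at 127, 107 and 107 CPM in normal and 65.8, 55.0 and 58.7 CPM in high glucose (log2FC -0.93, SE 0.08, adjusted p = 2.11e-05). Its level in high glucose was 0.527 of that in normal glucose, and no sample overlapped. Both genes kept direction and call under all 18 alternative settings.

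Short-chain type VIII collagens, which form lattices beneath endothelium and in the cornea, went in opposite directions. Col8a1 was at 359, 376 and 366 CPM in normal and 324, 345 and 324 CPM in high glucose (log2FC -0.15, SE 0.05, adjusted p = 0.0477). This small difference lost its call with no filter on low counts (adjusted p = 0.0532), with the replicate block (adjusted p = 0.0738), and without normal glucose replicate 2 (adjusted p = 0.0669) or 3 (adjusted p = 0.0802) or high glucose replicate 1 (adjusted p = 0.133) or 3 (adjusted p = 0.147), and was -0.26 on the log2 scale with library size alone. Col8a2 was at 20.3, 20.8 and 22.5 CPM in normal and 39.7, 41.7 and 40.6 CPM in high glucose (log2FC 0.94, SE 0.06, adjusted p = 1.08e-06). Col10a1, the chain of hypertrophic cartilage, had 11 to 22 counts per sample and was not called (adjusted p = 0.505).

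Of the 4 transmembrane collagens, Col23a1 was the most abundant, at 469, 448 and 480 CPM in normal and 575, 610 and 594 CPM in high glucose (log2FC 0.35, SE 0.05, adjusted p = 5.86e-04). Col13a1 (0.351 ± 0.030 and 0.437 ± 0.065 CPM), Col17a1 (1.08 ± 0.10 and 1.11 ± 0.21 CPM) and Col25a1 (14.6 ± 1.06 and 16.1 ± 0.28 CPM; SD, n = 3 in each group) were not called, with adjusted p-values of 0.259, 0.840 and 0.141. The multiplexins Col15a1 and Col18a1, whose C-terminal fragments restrain vessel growth, are components of vascular basement membrane zones. Col15a1 was at 155 ± 11.1 and 164 ± 1.26 CPM and Col18a1 at 201 ± 17.4 and 208 ± 2.94 CPM (SD, n = 3 each), neither was called (adjusted p = 0.339 and 0.624), and 95% intervals on the log2 scale were -0.05 to 0.21 and -0.10 to 0.19. Col26a1 had 6 to 17 counts per sample and was not called (adjusted p = 0.345).

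Abundant and rare collagens were both among the calls. Of 18 collagens with a mean of at least 100 CPM in normal glucose, 12 were higher and 2 lower, compared with 24.3% higher and 21.4% lower of the 1952 genes in that range. Between 10 and 100 CPM, 6 of 8 collagens were higher and none lower, against 22.7% and 13.7% of all genes, and below 10 CPM 4 of 14 were higher and 1 lower, against 10.8% and 13.7%. Compared per kilobase of mRNA, the order of the 4 highest levels was the same in both groups. Col3a1 was at 2232 CPM per kb in normal and 5843 in high glucose, followed by Col1a2 at 1974 and 2756, Col1a1 at 1310 and 2215, and Col5a2 at 467 and 612. By this measure Col28a1 moved from rank 20 to 18 and Col7a1 from rank 18 to 22 of the 44 genes.

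Collagen genes together took a larger share of all counts in high glucose. They held 4.86%, 4.62% and 4.97% of the counts in normal and 7.99%, 8.02% and 7.61% in high glucose, a difference of 3.06 percentage points without overlap. The two-sided exact permutation test gave p = 0.1, the smallest that 3 against 3 samples can give (adjusted p = 0.127 over 28 shares). Fibrillar genes made up most of it, with 3.76% ± 0.19 in normal and 6.51% ± 0.22 in high glucose (SD, n = 3 each). FACIT genes held 0.386% ± 0.041 and 0.604% ± 0.007 and other collagens 0.458% ± 0.018 and 0.538% ± 0.013, also without overlap. Basement membrane genes held 0.217% ± 0.009 in normal and 0.217% ± 0.004 in high glucose, with overlapping groups (exact permutation p = 1.0). These shares use all counts without TMM scaling, whose factors were 1.03 to 1.05 in normal and 0.95 to 0.97 in high glucose. The same counts in TMM-scaled CPM therefore come out higher in high glucose relative to normal glucose. Class shares on that scale were not computed, so the equal basement membrane shares hold for unscaled counts only.

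Within the collagen counts the composition shifted toward Col3a1. Its part was 27.4%, 26.5% and 26.6% in normal and 39.0%, 40.8% and 39.2% in high glucose. The part of Col1a2 was 22.8% ± 0.45 in normal and 18.0% ± 0.25 in high glucose (SD, n = 3 each), although its own level had risen. Col1a1 held 16.8% ± 0.69 and 16.0% ± 0.47, with overlap. Col5a2 went from 6.69% ± 0.10 to 4.94% ± 0.065, Col5a1 from 4.25% ± 0.025 to 3.60% ± 0.023 and Col4a1 from 2.61% ± 0.056 to 1.51% ± 0.014, each without overlap. As parts of a fixed sum, these shares are not independent of each other.

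**Figure D2:**
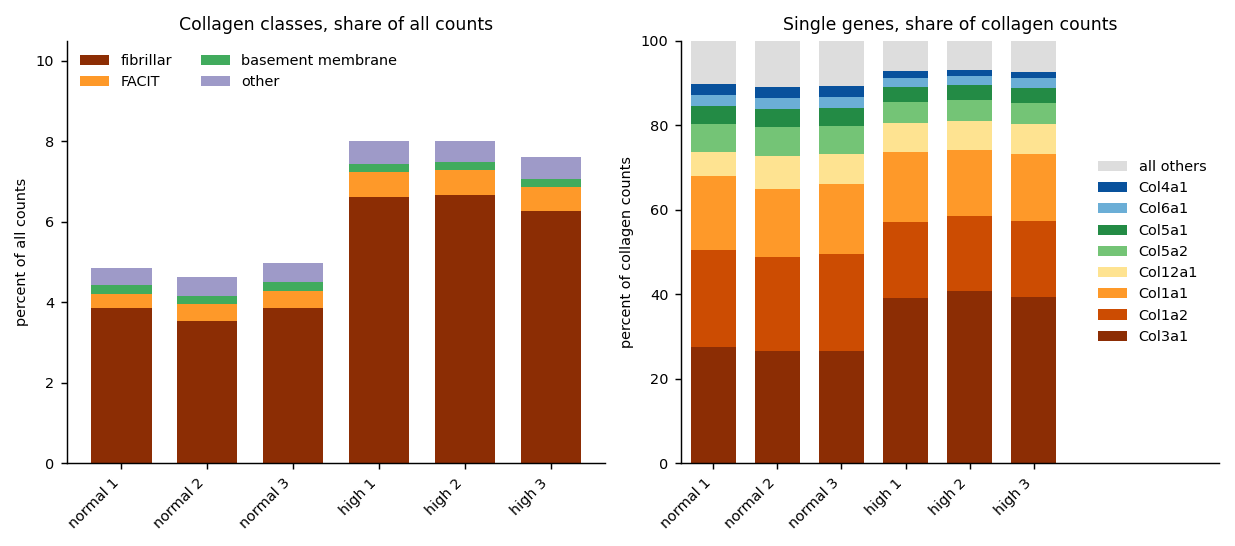
Left, percent of all counts held by each collagen class in the 6 samples (stacked bars from 0). Right, percent of the collagen counts held by the 8 genes listed and by all others. Fibrillar counts account for most of the taller high glucose bars, and the Col3a1 part is near 40% in high glucose and near 27% in normal glucose.

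Ratios of counts were compared for 16 pairs of chains, some of them partners in a trimer and others chains of the same fibrils or of related types, of which 11 did not overlap between groups, 5 higher and 6 lower. No share was computed for ratios of other gene pairs, and of single tested genes 25.1% lay wholly above and 21.3% wholly below. Some genes, such as Col1a1 and Col5a1, enter several pairs, so the pairs are not independent. No pair could pass a threshold of 0.05, since the smallest exact permutation p was 0.1 (adjusted p = 0.145 over the 16 pairs). The log2 ratio of Col3a1 to Col1a1 was 0.65, 0.72 and 0.67 in normal and 1.23, 1.38 and 1.31 in high glucose. That of Col1a1 to Col1a2 was -0.40, -0.47 and -0.46 in normal and -0.14, -0.18 and -0.19 in high glucose. Per kilobase, this put the Col1a1 to Col1a2 ratio at 0.663 in normal and 0.803 in high glucose.

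Within type VIII, the log2 ratio of Col8a1 to Col8a2 had the largest difference of the 16 pairs, -1.09, with 4.15, 4.18 and 4.03 in normal and 3.03, 3.05 and 3.00 in high glucose. Differences in the log2 ratio were -0.64 for Col11a1 against Col5a1, -0.67 for Col6a6 against Col6a3, -0.28 for Col14a1 against Col12a1, -0.17 for Col5a1 against Col1a1 and -0.19 for Col4a1 against Col4a2, all without overlap. Ratios of Col5a1 to Col5a2, Col6a1 to Col6a2 and Col4a5 to Col4a1 were higher by 0.20, 0.19 and 0.26. For Col6a3 to Col6a1, Col5a3 to Col5a1, Col12a1 to Col1a1, Col15a1 to Col18a1 and Col4a5 to Col4a6 the groups overlapped.

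**Figure D3:**
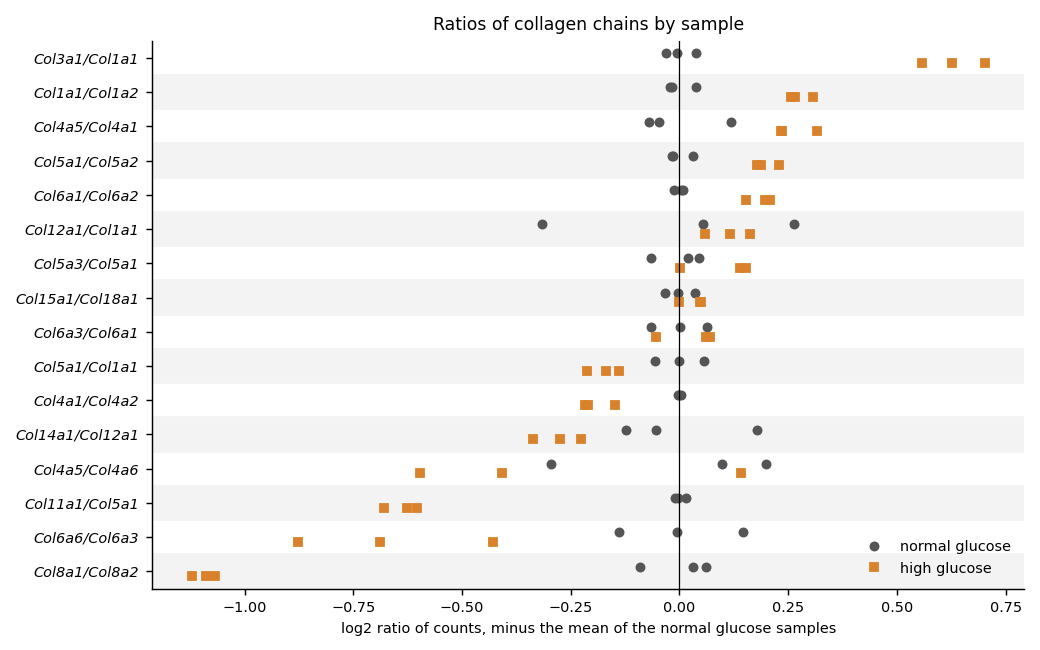
Log2 ratio of normalised counts for 16 pairs of collagen chains in each sample (x axis), after subtraction of the mean of the normal glucose samples. In 11 pairs the high glucose samples (orange squares) lie wholly to one side of the normal glucose samples (grey circles), from Col3a1/Col1a1 at a difference of 0.63 to Col8a1/Col8a2 at -1.09.

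Genes that act on collagens were examined in 5 lists of 102 genes, of which 99 were tested, 44 were higher and 20 lower. In the list of procollagen folding, processing and cross-linking, 17 of 36 tested genes were higher and 7 lower. These shares were 47.2% and 19.4%, against 16.9% and 14.5% of all tested genes. P3h2, a prolyl 3-hydroxylase that acts on type IV chains, rose from 9.03 ± 1.07 to 17.2 ± 0.36 CPM (log2 fold change 0.93, adjusted p = 2.30e-05), and Plod2, the telopeptide lysyl hydroxylase, rose with a log2 fold change of 0.61. Adamts3, a procollagen N-proteinase, rose with a log2 fold change of 0.64. Tll2 and Tll1, relatives of the procollagen C-proteinase, and Pcolce2, an enhancer of that cleavage, fell by 1.65, 1.17 and 1.33 on the log2 scale. They were rare, with means going from 2.46 to 0.783, 8.99 to 3.99 and 5.77 to 2.30 CPM. The C-proteinase gene itself, Bmp1, was called higher, from 841 ± 21.6 to 1090 ± 50.1 CPM (log2 fold change 0.37, adjusted p = 4.56e-04). So was the more abundant Pcolce, from 1087 ± 59.4 to 1449 ± 24.8 CPM (log2 fold change 0.41, adjusted p = 2.78e-04).

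Of 17 genes for proteins that sit on collagen fibrils or organise them, 14 were higher and 1 lower. These shares were 82.4% and 5.9%, against 16.9% and 14.5% of all tested genes, and the median log2 fold change was 0.70. Abi3bp rose from 81.5 ± 8.85 to 382 ± 16.9 CPM (SD, n = 3 each; log2FC 2.23). Comp, a cartilage and tendon protein that binds collagen, and Prelp, a leucine-rich repeat protein, had log2 fold changes of 1.90 and 1.16. Thbs1, a matricellular glycoprotein, was the gene that fell, from 9328 ± 241 to 6642 ± 256 CPM (log2 fold change -0.49).

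Collagen receptors and uptake genes numbered 10 tested, with 2 higher and 2 lower, shares of 20.0% each that lie near the 16.9% and 14.5% of all tested genes. Itga11, the integrin chain for fibrillar collagens, rose from 181 ± 27.8 to 395 ± 12.3 CPM (log2 fold change 1.12), and Itga1 rose with a log2 fold change of 0.49. Itgb1, the shared beta chain, fell by 0.25 on the log2 scale, and Ctsk, a lysosomal protease that cleaves collagen, fell by 0.50. Of 8 collagen-degrading metalloproteinases, 5 were lower and 1 higher (62.5% and 12.5%, against 14.5% and 16.9% of all tested genes). Their summed level was nevertheless higher, at 2665 to 2841 CPM in normal and 2942 to 3020 CPM in high glucose. Mmp1a fell from 1.23 ± 0.071 to 0.137 ± 0.016 CPM (log2 fold change -3.15), and Mmp9 and Mmp13, a gelatinase and a collagenase, had log2 fold changes of -1.16 and -0.63. Mmp14, a membrane-bound collagenase, rose with a log2 fold change of 0.23 (adjusted p = 0.00809), a call lost with library size alone (0.12, adjusted p = 0.102) and without high glucose replicate 1 (adjusted p = 0.0565) or 3 (adjusted p = 0.0708).

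Among 28 regulators of collagen transcription, 10 were higher and 5 lower (35.7% and 17.9%, against 16.9% and 14.5% of all tested genes). Tgfb2, a ligand that induces collagen genes in many cells, rose from 9.46 ± 0.79 to 23.4 ± 0.75 CPM (log2 fold change 1.31), and the transcription factors Runx1 and Sox5 had log2 fold changes of 0.67 and 0.65. Smad7, an inhibitor of TGF-beta signalling, and Ccn2, a TGF-beta target, fell by 0.59 and 0.51 on the log2 scale, and Klf4 fell by 0.72. The share called over the 5 lists, 44.4% higher and 20.2% lower, can be set beside 16.9% and 14.5% of all tested genes. Among all tested genes with a mean of at least 100 CPM in normal glucose, the shares were 24.3% and 21.4%. The lists were chosen with earlier results of these data known.

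**Figure D4:**
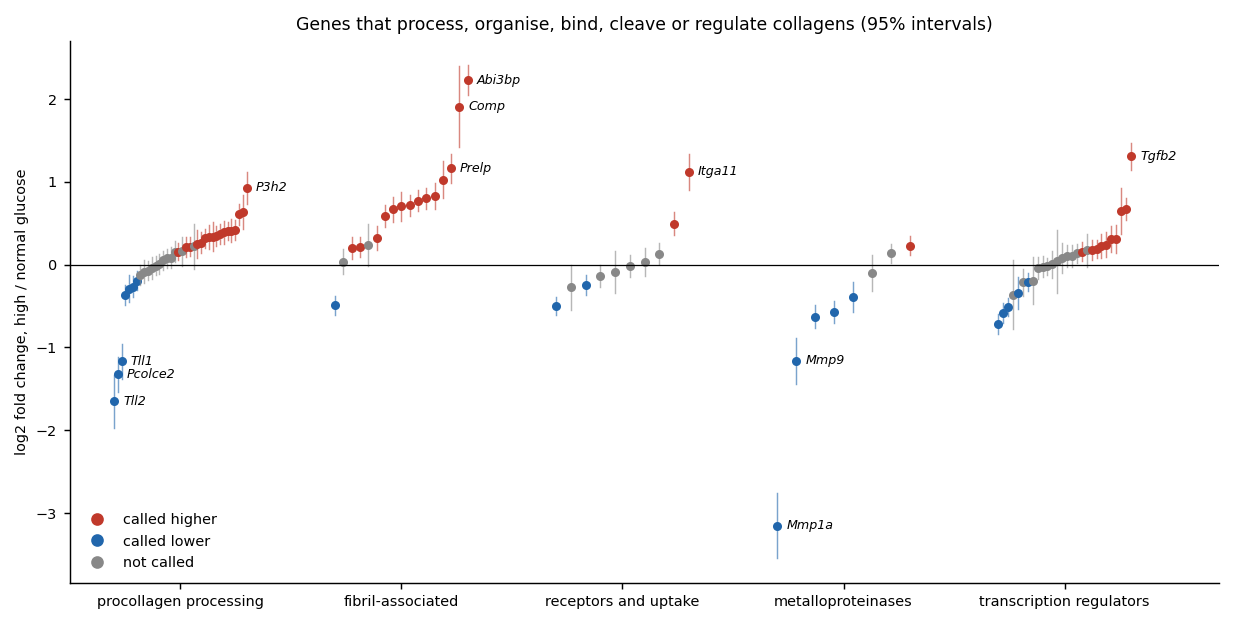
Log2 fold change (y axis, high over normal glucose) of the 99 tested genes that process, organise, bind, cleave or regulate collagens, in 5 lists along the x axis. Points are edgeR estimates, lines 95% intervals and colours the calls, and genes of the largest changes are named. Fibril-associated genes lie mostly above 0, and metalloproteinases mostly below.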

How the data were processed

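Polyadenylated RNA of 6 cultures (3 normal glucose, 3 high glucose) was measured by bulk RNA sequencing. The authors trimmed reads with Trimmomatic, aligned them to GRCm38 (mm10) with HISAT2 and summarised them with StringTie, and deposited raw counts per gene. Versions, annotation release and strand setting are not given in the sources used here. Among low counts, 2 was nearly as frequent as 1 (9280 against 10842 entries), so both reads of a pair may have been counted. Halved counts were therefore tried. Floors cover counting error only, whereas the intervals, like the p-values, also reflect the spread between the samples of a group. Of 55487 identifiers, 55141 had a symbol, and the rest held 0.0340% of the counts.

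The differential test was edgeR 4.0.16 under R 4.3.3 (low counts filtered by filterByExpr with a minimum count of 10 and a minimum total of 15, TMM, quasi-likelihood test, Benjamini-Hochberg adjustment over all 19015 tested genes, threshold 0.05). CPM values use TMM-scaled library sizes. Levels per kilobase use the longest protein-coding transcript in GENCODE M21. Standard errors were taken from the test statistic.

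Members, classes and gene lists were chosen with earlier results of these data known. Every collagen gene was named, with values per sample for called genes with an absolute log2 fold change of at least 0.5 or a mean of at least 100 CPM. Other genes were named from the lists, up to 3 called genes each way with the largest change, and the defining markers, or as genes that share exonic bases with a collagen. Bmp1 and Pcolce were added beside their rarer relatives, and Dcn, Lum, Fbln1 and Lox as genes in both marker and pathway lists.

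The 18 alternatives across genes were DESeq2 1.42.0, the likelihood ratio test, RLE, upper quartile or library size scaling, normalization without collagens, 2 other filters, halved counts, the replicate number as a block, the library trend on GC content and length removed with mgcv 1.9.3 without and with the block, and each sample left out; a minimum absolute log2 fold change of 0.5 was also tried.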

Additional observations from a re-analysis of the deposited data

How the results depend on the processing

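Across the 18 alternative settings, 28 of the 40 tested collagens kept direction and call throughout, among them 21 of the 22 called higher and 1 of the 3 called lower. With an absolute log2 fold change of at least 0.5 required, 14 collagens were higher, and 18 pathway genes were higher and 10 lower. Leaving out each sample in turn gave 21 to 23 higher and 1 to 4 lower collagens, with 1 lower without normal glucose replicate 3 or without high glucose replicate 3. Pathway genes called higher numbered 28 with library size alone. The median log2 fold change of FACIT genes was 0.33 with library size alone, 0.71 with a filter of 1 CPM in 3 samples, 0.35 and 0.34 with the GC and length trend removed without and with the replicate block, and 0.32 to 0.53 with each sample left out. For basement membrane genes these were 0.33, 0.20, 0.33, 0.32 and 0.35 to 0.53. For fibrillar genes it was 0.42 with library size alone and 0.39 and 0.40 with the trend removed. For the other collagens it was 0.068 with upper quartile scaling, -0.0047 with library size alone, 0.20 with the 1 CPM filter and with halved counts, 0.028 with the trend removed in both fits, and 0.040 to 0.14 with each sample left out. The filter of 1 CPM and the halved counts left fewer genes to test, 13667 and 17267 against 19015. The cause of the other moves was not tested. The difference in the collagen share of counts was 3.56 percentage points with TMM-scaled library sizes.

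Log2 fold changes near 0 changed sign in collagens that were not called. With library size alone they were -0.088 for Col16a1, -0.086 for Col4a1, -0.035 for Col15a1, -0.062 for Col17a1 and -0.068 for Col18a1, and with upper quartile scaling -0.016 for Col16a1 and -0.014 for Col4a1. With the GC and length trend removed, without and with the replicate block, they were -0.10 and -0.093 for Col16a1, -0.11 in both for Col4a1, -0.0013 and -0.00096 for Col15a1, -0.051 and -0.063 for Col17a1, and -0.082 in both for Col18a1. With each sample left out they ranged from -0.048 to 0.071 for Col16a1, -0.0096 to 0.059 for Col4a1, -0.12 to 0.15 for Col17a1, -0.020 to 0.11 for Col18a1 and -0.32 to 0.021 for Col6a4. Without each sample in turn the log2 ratio difference ranged from -0.0072 to 0.066 for Col6a3 to Col6a1 and from -0.045 to 0.24 for Col12a1 to Col1a1.

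Deviations of same-numbered samples across genes correlated at -0.02, 0.004 and 0.01, so the numbers were not taken to pair the samples. With the replicate block, 23 collagens were higher, including all 22, and 2 were lower, both among the 3. At this depth a level under 0.0211 to 0.0258 CPM could not be told from 0, which bears on Col19a1 and Col22a1, each with samples at 0 counts.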

Other observations

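Marker lists of other cell types are given here as counts, whose part in the collagen results was not tested; over all tested genes 16.9% were higher and 14.5% lower. Of 9 tested cartilage and tendon markers that are no collagens, 4 were higher and 1 lower. Cnmd, an anti-angiogenic cartilage glycoprotein, rose from 0.738 ± 0.033 to 7.18 ± 0.35 CPM (SD, n = 3 each; log2 fold change 3.28), while Matn3, a cartilage matrix protein, fell from 0.163 ± 0.019 to 0.0581 ± 0.027 CPM (log2 fold change -1.46, a call lost with DESeq2 and without high glucose replicate 1 or 2). All 6 adipocyte markers had log2 fold changes above 0, 4 of them called, among them Lpl, a lipase of the vessel lumen, at 4212 ± 131 and 6475 ± 233 CPM and Adipoq at 19.2 ± 0.56 and 30.6 ± 1.31 CPM. Of 10 tested smooth muscle and pericyte markers, 2 were higher, with Rgs5 at a log2 fold change of 1.20, and 6 were lower, with Cnn1 at -1.02. Of 5 tested Schwann cell and melanocyte markers, 1 was higher and 3 were lower, and of 4 tested macrophage markers 1 was higher and 2 were lower. Among these, the call of Cd68 (lower) was lost in 9 alternative settings, that of Pmel (higher) in 4 and that of Sox10 (lower) in 3. Of 3 tested keratinocyte markers, Krt5 was higher, with at most 23 counts in a sample.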
